A study of Mus musculus with 3 samples.

Results

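The genes for serotonin receptors were followed across neurons, glia and vessel cells of mouse medial prefrontal cortex (mPFC). The 10 genes were chosen by symbol (Htr1a, Htr1b, Htr1d, Htr1f, Htr2a, Htr2c, Htr3a, Htr4, Htr5a and Htr7), and all 10 were found among the 32285 genes listed in each library. The study compared females in estrus, females in diestrus and males, and asked which features of mPFC neurons respond to the cycle and to sex. There was 1 droplet single-cell RNA library per group, each from 2 pooled mice that cannot be separated, so the 3 libraries are the only replicates of a cell class and no group has a replicate. No strain, age or genetic change is stated in the labels used here. Tissue was digested with papain, cleaned on Percoll and loaded at 15000 cells per library, with no sort described. The labels call the samples neurons, but microglia, endothelial cells and oligodendrocytes, each with their own markers, made up most of the cells.

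Serotonin reaches the cortex along fibres of the raphe nuclei and acts through receptors that couple to different signals. The Htr1 receptors and Htr5a couple to Gi/o proteins, which lower cyclic AMP and open potassium channels. Htr2a and Htr2c couple to Gq, which acts through phospholipase C and calcium release, and Htr4 and Htr7 couple to Gs, which raises cyclic AMP. Htr3a encodes the subunit that forms a cation channel opened directly by serotonin, and in the cortex it is known as a marker of interneurons derived from the caudal ganglionic eminence. Htr2a is known as the main target of serotonergic psychedelics in cortical pyramidal cells, and Htr1a as a somatodendritic inhibitory receptor.

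Promoter stretches of 4 of the genes are shown because the results turn on them: Htr1f was the most abundant receptor and differed most between libraries, Htr2a and Htr2c share the Gq signal but peaked in different subclasses, and Htr7 was the Gs receptor called higher in GABAergic than in glutamatergic neurons. They are RefSeq sequences on GRCm38.p6, read from the 250 bases before the RefSeq start and cut where the GENCODE gene model begins. Htr1f lies at chr16:65105855-65106034 and Htr7 at chr19:36057508-36057610, both on the minus strand. Htr2a lies at chr14:74640624-74640839 and Htr2c at chrX:146962263-146962512, both on the plus strand. Capitals mark matches to the motifs named below.
Htr1f: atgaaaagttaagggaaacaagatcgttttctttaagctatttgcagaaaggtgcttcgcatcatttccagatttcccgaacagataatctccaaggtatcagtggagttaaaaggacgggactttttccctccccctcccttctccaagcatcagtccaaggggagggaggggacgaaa
Htr2a: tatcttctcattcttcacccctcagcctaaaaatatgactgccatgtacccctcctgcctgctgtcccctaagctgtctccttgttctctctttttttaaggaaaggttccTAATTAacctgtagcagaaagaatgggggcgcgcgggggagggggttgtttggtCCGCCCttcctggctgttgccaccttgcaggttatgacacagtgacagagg
Htr2c: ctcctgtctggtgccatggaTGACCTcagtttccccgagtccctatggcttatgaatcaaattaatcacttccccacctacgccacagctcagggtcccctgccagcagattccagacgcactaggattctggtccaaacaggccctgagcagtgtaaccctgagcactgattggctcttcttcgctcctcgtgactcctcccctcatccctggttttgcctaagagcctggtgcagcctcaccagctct
Htr7: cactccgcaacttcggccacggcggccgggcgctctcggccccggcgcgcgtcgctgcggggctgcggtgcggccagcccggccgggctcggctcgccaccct

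Both strands of the whole 250-base windows were searched for 7 motifs. Of 32851 RefSeq windows of this length, from 27025 genes, 12.4% held the TATA box TATAAA, 1.55% the cyclic AMP response element TGACGTCA and 6.02% the E-box CACGTG. The palindromic estrogen response element was held by 0.0639%, its half-site AGGTCA by 14%, the homeodomain core TAATTA by 4.84% and the GC box GGGCGG by 32.7%. The full estrogen response element can contain the half-site, so those matches could overlap. Htr2a held TAATTA and the GC box read on the other strand as CCGCCC, and Htr2c held the half-site read as TGACCT. Htr1f and Htr7 held none of the 7. The windows also differed in base composition: GC content was 82.0% for Htr7, at percentile 99.4 of all windows, against 49.2% for Htr1f, 52.8% for Htr2a, 55.6% for Htr2c and a median of 52.4% over all windows. Htr1a (50.4% GC) held a GC box, Htr1b (52.4%) and Htr5a (62.0%) held no match, and the windows of Htr1d (51.6% and 72.4%) held GC boxes only. Such matches describe letters, not bound sites.

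On mm10 the gene models of GENCODE vM21 placed Htr1f at chr16:64924729-65105854, Htr7 at chr19:35958734-36057507, Htr1b at chr9:81628291-81633828 and Htr3a at chr9:48899213-48911099, all on the minus strand. Htr2a lay at chr14:74640840-74709494, Htr2c at chrX:146962513-147197277, Htr1a at chr13:105443639-105448122, Htr1d at chr4:136423524-136444398 and Htr5a at chr5:27842149-27855088, all on the plus strand. Each is a protein-coding gene, and UMIs were counted per gene, so exons and introns cannot be told apart.

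The deposited matrices held 14476, 18052 and 19555 barcodes and 152291602, 144738154 and 115632520 unique molecular identifiers (UMIs, each counting 1 captured RNA) in the estrus, diestrus and male libraries. Depth per cell was lower from estrus to diestrus to male, and differed most in glutamatergic neurons, with medians of 37149.5, 25657.5 and 14596.5 UMIs. GABAergic neurons had 22907, 15055.5 and 14042, microglia 5291, 4445 and 3290, and endothelial cells 4761, 3573 and 2221.5. Cells were assigned by marker genes, none of them a serotonin receptor, to 1374, 1760 and 1550 glutamatergic and 172, 278 and 287 GABAergic neurons, and neurons again to subclasses. The subclass names below (such as L5/6 NP for near-projecting, L6 CT for corticothalamic, IT for intratelencephalic and ET for extratelencephalic neurons of the numbered layers) stand for cells like these by their markers. Between 68 and 97 barcodes were shared by each pair of libraries. Values are counts per 1000000 (CPM), the summed UMIs of a gene in a class over all nuclear UMIs of that class, and their 95% intervals cover counting error only. Tests are edgeR quasi-likelihood tests on these sums with the library as a block, which takes out library differences shared by all classes. Their p-values rest on the spread left within classes over 3 libraries that also differ in cycle stage and sex. The classes of a family share 1 estimate of that spread. A gene is called when its Benjamini-Hochberg adjusted p is below 0.05 and its log2 fold change is at least 1 in size.

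Receptor UMIs lay mainly in neurons, and Htr1f had more of them than any other of the 10 genes. Of its 26841 UMIs in assigned cells, 78.1% were in neurons. Htr2c followed with 7346 UMIs and 83.5% in neurons, Htr2a with 6573 and 80.8%, and Htr4 with 2574 and 86.4%. Htr1b (1541), Htr7 (1133), Htr1a (1014), Htr5a (982) and Htr3a (742) were sparser, with 78.8% to 89.1% of UMIs in neurons. These shares also depend on the number and depth of the cells, and neurons were the deeper ones. The share of all UMIs in neurons is not given, so they do not compare levels. Htr1d had 45 UMIs in all, so most of its levels lie at the detection limit. Of the receptor genes outside the list, Htr2b had 488 UMIs, Htr6 446, Htr5b 119 and Htr3b 2.

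GABAergic and glutamatergic neurons carried different sets of receptors. Of the 10 genes, 4 were called higher in GABAergic neurons (Htr1d, Htr2c, Htr3a and Htr7) and 2 lower (Htr1b and Htr1f), where 9.73% of all 16204 genes tested were called higher and 11.2% lower. Htr3a had 50.4, 45.3 and 37.5 CPM in GABAergic neurons of the estrus, diestrus and male libraries, against 0.0561, 0.20 and 0.138 CPM in glutamatergic neurons, which is 627 UMIs against 17 (log2 fold change 8.37, SE 0.24, edgeR adjusted p = 1.65e-11). Htr7 had 21.9, 26.4 and 22.1 CPM in GABAergic and 2.97, 6.90 and 5.94 CPM in glutamatergic neurons (2.17, SE 0.19, adjusted p = 7.2e-07). Both genes were thus higher in GABAergic neurons of all 3 libraries with no overlap between the classes.

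Htr2c had 65.5, 109 and 94.8 CPM in GABAergic neurons, against 27.1, 42.8 and 43.5 CPM in glutamatergic neurons (log2 fold change 1.21, SE 0.079, adjusted p = 3.17e-08). Htr1f went the other way, with 33.5, 118 and 87.4 CPM in GABAergic and 80.9, 194 and 199 CPM in glutamatergic neurons. Its log2 fold change was -1.07 (SE 0.099, adjusted p = 9.89e-07), and its ranges in the classes overlapped, with the estrus library low in both. Without the library block its call ended (adjusted p = 0.11), and the gene was lower in GABAergic neurons in each of the 3 libraries. Htr1b, a receptor known from axon terminals, had 2.28, 4.57 and 3.37 CPM in GABAergic and 8.90, 9.28 and 7.77 CPM in glutamatergic neurons (-1.37, SE 0.22, adjusted p = 0.000187).

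The other genes differed less between the classes. Htr4 was higher in GABAergic neurons by 0.80 on the log2 scale (adjusted p = 0.000282), Htr5a by 0.61 (adjusted p = 0.0213), and Htr2a had a log2 fold change of -0.51 (adjusted p = 0.00239), all short of the fold required for a call. Htr1a had 6.84, 5.76 and 6.32 CPM in GABAergic and 4.45, 6.96 and 7.22 CPM in glutamatergic neurons, and its ranges overlapped. The call of Htr1d rested on 11 UMIs in GABAergic and 25 in glutamatergic neurons (1.84, SE 0.64, adjusted p = 0.0283). It was lost without any 1 of the 3 libraries, without the block, without the filter on low counts and in DESeq2, with adjusted p between 0.0553 and 0.0978.

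**Figure D1:**
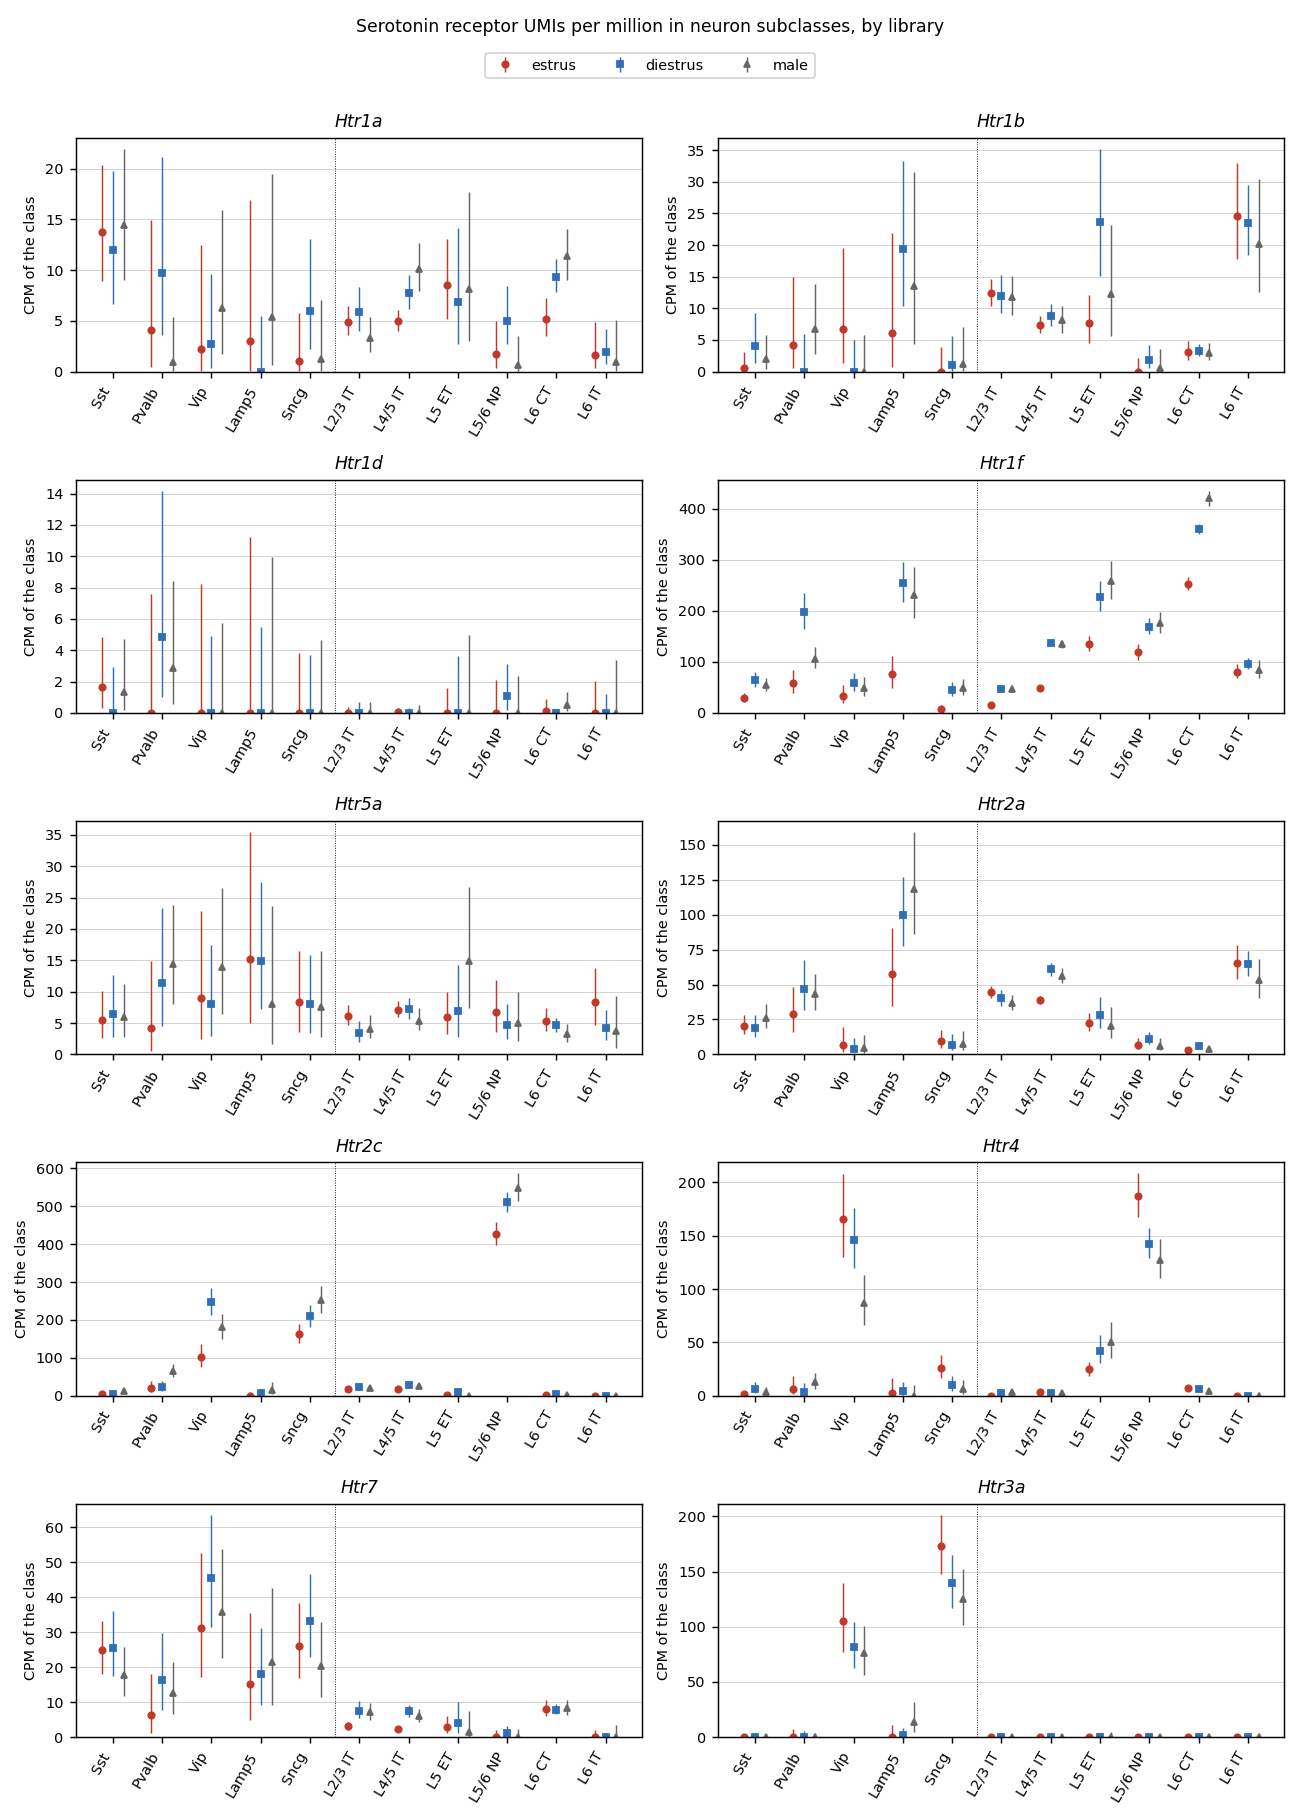
Level of each receptor gene (CPM of the class) in 11 neuron subclasses, GABAergic left and glutamatergic right of the dotted line. Points are the estrus (circle), diestrus (square) and male (triangle) libraries and bars exact Poisson 95% intervals; Htr2c peaks in L5/6 NP, Htr3a in Sncg, and Htr4 in both L5/6 NP and Vip.

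Among the 6 glutamatergic subclasses with at least 20 cells in each library, 15 of 48 tests of the receptors were called higher and 11 lower, where 5.54% and 4.39% of the 84054 tests of all genes were. Htr1d and Htr3a were too sparse to be tested, so the 48 tests cover 8 genes. Among the 3 GABAergic subclasses of that size (Sst, Vip and Sncg, named for their markers), 7 of 21 tests were called higher and 4 lower, against 4.13% and 3.89% of all 30396 tests. Htr1b, Htr1d and Htr5a were not tested there. Pvalb and Lamp5 neurons, with 14 to 41 and 16 to 36 cells per library, entered only a fit added after the values were seen, of subclasses with at least 10 cells. It called 9 of 35 tests higher and 8 lower, against 4.95% and 3.94% of all tests. In Sst neurons it called 0 receptors higher and 2 lower, where the fit of 3 subclasses called 2 higher and 3 lower. Htr5a was tested in the added fit and Htr1a was not.

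Of the Gi/o-coupled receptors, Htr1f had the highest levels. It was highest by its mean, 345 ± 84.8 CPM (SD, n = 3 libraries), in L6 CT neurons, which project to the thalamus. They had 254, 361 and 421 CPM in the estrus, diestrus and male libraries. That was 5.04, 3.02 and 3.70 times the level of the other glutamatergic subclasses together (log2 fold change against the mean of the others 1.81, SE 0.11, adjusted p = 1.28e-11). At least 1 UMI was held by 95.3%, 94.9% and 93.8% of these cells, against 4.98%, 10.7% and 9.05% of microglia. Such shares, here and below unless called thinned, compare cells of unlike depth. Medians were 30759, 28193 and 18431 UMIs per L6 CT neuron and 5291, 4445 and 3290 per microglial cell. L5 ET neurons followed at 135, 228 and 259 CPM, whose range overlapped that of L6 CT neurons across libraries, though L6 CT was higher in each library. L5/6 NP neurons had 119, 169 and 177 CPM and L4/5 IT neurons 49.6, 138 and 135 CPM. L2/3 IT neurons of the upper layers were lowest at 15.4, 47.5 and 47.5 CPM (-2.22, SE 0.16, adjusted p = 1.13e-10). Of GABAergic subclasses, Lamp5 neurons had 76.0, 254 and 232 CPM (1.74, adjusted p = 1.71e-08 in the added fit) and Sncg neurons 8.33, 45.1 and 49.2 CPM.

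Htr1b was highest by its mean in L6 IT neurons (22.7 ± 2.32 CPM, SD, n = 3), with 24.6, 23.5 and 20.1 CPM, which was 3.20, 3.45 and 2.96 times the level of the other glutamatergic subclasses (log2 fold change 2.15, SE 0.22, adjusted p = 5.09e-08). L2/3 IT neurons had 12.4, 12 and 11.8 CPM. Its log2 fold change there was 1.04 (adjusted p = 0.00012), and the call, near the fold limit, ended without the estrus library, without the block and with the looser gate. L5 ET neurons were uneven at 7.64, 23.6 and 12.2 CPM (1.15, adjusted p = 0.00417), and without the diestrus library adjusted p was 0.0892 and with the stricter gate 0.511. L5/6 NP neurons had 0, 5 and 1 UMIs in the 3 libraries, or 0, 1.79 and 0.632 CPM (adjusted p = 1.25e-06). L6 CT neurons were low at 3.12, 3.25 and 2.94 CPM (-1.32, adjusted p = 0.000389), a call that ended without the diestrus library (adjusted p = 0.169) and with the stricter gate (0.108).

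Htr1a was highest in Sst interneurons (13.4 ± 1.28 CPM, SD, n = 3), at 13.8, 12 and 14.5 CPM from 25, 15 and 22 UMIs, with no overlap with the next subclass. This was 6.13, 2.60 and 5.15 times the level of the other GABAergic subclasses, with Pvalb and Lamp5 included. The test set Sst against Vip and Sncg neurons alone (log2 fold change 1.98, SE 0.42, adjusted p = 0.00209). L6 CT neurons came second at 5.15, 9.36 and 11.3 CPM (0.99, adjusted p = 0.00151, just under the fold limit). L6 IT neurons held the least, 1.68, 1.93 and 0.915 CPM from 10 UMIs in all (-1.82, SE 0.49, adjusted p = 0.00773), and that call ended without the diestrus library (adjusted p = 0.15) and with the stricter gate (0.0701). L6 IT neurons thus had the lowest mean of Htr1a and the highest of Htr1b, with ranges that overlapped the next subclass in both orders.

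Htr5a was spread most evenly. Its mean over libraries lay between 4.37 CPM in L6 CT and 12.7 CPM in Lamp5 neurons, neighbouring subclasses in the order overlapped at 9 of 10 steps, and none of its 6 glutamatergic tests was called (unadjusted p between 0.0758 and 0.88). Htr1d had 6 UMIs in Pvalb and 5 in Sst neurons, against 0 in L2/3 IT, L5 ET, L6 IT, Vip, Lamp5 and Sncg neurons. In L2/3 IT neurons that 0 allows up to 0.144 CPM over the 3 libraries.

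The Gq-coupled receptors peaked in different subclasses, and both were called higher in L2/3 IT and L4/5 IT neurons. Htr2c was highest in L5/6 NP neurons (496 ± 61.9 CPM, SD, n = 3), at 428, 510 and 549 CPM, from 755, 1422 and 869 UMIs. It was detected in 89.6%, 86.7% and 84.8% of these cells, against 0.358%, 1.88% and 1.29% of microglia, a class taken, without a test, to lack it. No other subclass overlapped the level in L5/6 NP neurons. The level was 33.2, 33.9 and 37.6 times that of the other glutamatergic subclasses together (adjusted p = 5.09e-21). At the other end, L6 IT neurons held 2 UMIs, both in the diestrus library. A fitted fold change for Htr2c in the glutamatergic subclasses depends on that near-empty subclass and is not given.

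Among GABAergic neurons Htr2c was high in Sncg neurons, with 163, 210 and 252 CPM (log2 fold change 2.48, SE 0.18, adjusted p = 2.31e-08), and in Vip neurons, with 103, 247 and 181 CPM (2.19, SE 0.19, adjusted p = 3.05e-07). Their ranges overlapped. Sst neurons had 3.86, 5.59 and 13.1 CPM (-4.67, adjusted p = 1.32e-10), and Pvalb neurons 20.7, 24.3 and 65.3 CPM. In L2/3 IT and L4/5 IT neurons Htr2c was modest, at 17.8, 22.4 and 19.8 CPM and at 17.0, 29.5 and 26.7 CPM. These were called higher than the mean log level of the others and yet were below the pooled level of the other subclasses, at 0.335 to 0.502 times it, since L5/6 NP neurons dominate that pool. The L2/3 IT call fell under the fold limit without the estrus library and with the looser and the stricter gate. Calls of lower Htr2c in L5 ET and L6 CT neurons were lost in 5 and 2 of 11 alternatives, among them the fit without the block (adjusted p = 0.0708 and 0.0615). The L5 ET call also ended without any 1 library (adjusted p = 0.0604 without male, 0.104 without estrus), and the L6 CT call without diestrus (0.993).

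Htr2a had its peaks in other subclasses. It was high in L6 IT neurons at 65.4, 64.6 and 53.1 CPM (log2 fold change 1.78, SE 0.15, adjusted p = 1.88e-09), in L4/5 IT neurons at 38.8, 60.8 and 56.0 CPM (1.44, SE 0.11, adjusted p = 5.17e-10) and in L2/3 IT neurons at 44.6, 40.0 and 36.5 CPM (1.06, SE 0.12, adjusted p = 2.34e-07). The last fell under the fold limit without the estrus library (0.84). L6 CT neurons had 2.96, 6.10 and 4.14 CPM (-2.70, SE 0.17, adjusted p = 1.31e-11) and L5/6 NP neurons 6.80, 11.1 and 6.32 CPM (-1.72, adjusted p = 1.68e-06). All 3 IT subclasses thus lay above both of these in every library.

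The highest mean of Htr2a among the 11 subclasses was in Lamp5 interneurons (92.2 ± 31.2 CPM, SD, n = 3), at 57.8, 100 and 119 CPM from 19, 67 and 44 UMIs (2.74, adjusted p = 3.53e-10 in the added fit), overlapping L6 IT neurons. Pvalb neurons had 28.9, 46.9 and 43.2 CPM (1.17, adjusted p = 0.000207 in the added fit). Sst neurons had 20.4, 19.2 and 26.3 CPM. They were called higher against Vip and Sncg neurons alone (1.75, adjusted p = 0.000139) and not once Lamp5 and Pvalb neurons were among the others (0.19, adjusted p = 0.583). Vip neurons had 3 UMIs in each library, 6.70, 4.01 and 4.67 CPM. Their lower call (-1.37, adjusted p = 0.0294) was lost without any 1 library and in DESeq2 (adjusted p = 0.212) and held in the added fit (-2.48, adjusted p = 1.37e-05).

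Of the Gs-coupled receptors, Htr4 had a pair of distant peaks. L5/6 NP neurons had 187, 142 and 128 CPM, which was 42.2, 27.2 and 25.8 times the other glutamatergic subclasses (adjusted p = 8.12e-14), with a UMI in 80.6%, 65.3% and 56.5% of cells, against 0.149%, 0.537% and 0.468% of microglia. Vip neurons had 165, 146 and 87.2 CPM, or 18.5, 22.4 and 13.5 times the other GABAergic subclasses, with Pvalb and Lamp5 included. The test set Vip against Sst and Sncg neurons alone (log2 fold change 4.21, SE 0.25, adjusted p = 3.35e-09). Means were 152 ± 30.9 CPM in L5/6 NP and 133 ± 40.7 CPM in Vip neurons (SD, n = 3 each), and the ranges overlapped. Both lay above every other subclass. L5 ET neurons came next with 24.6, 42.3 and 50.2 CPM, 2.12, 2.90 and 4.17 times the other glutamatergic subclasses (adjusted p = 6.12e-06). Sst neurons were low, at 1.66, 6.39 and 3.94 CPM (-3.53, adjusted p = 1.69e-06). L6 IT neurons held 0 UMIs, at least 29.0-fold lower than the 14.5 CPM of the other glutamatergic subclasses, with 3 counts over the 3 libraries as the limit. L5/6 NP neurons dominate that pool, so the fold is smaller against other subclasses, such as L6 CT neurons at 7.17, 6.64 and 4.67 CPM.

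Htr7 was spread over the interneurons, with the highest mean in Vip neurons (37.5 ± 7.23 CPM, SD, n = 3). Vip neurons had 31.3, 45.4 and 35.8 CPM, Sncg neurons 26.0, 33.1 and 20.2 CPM, Sst neurons 24.8, 25.6 and 17.7 CPM and Lamp5 neurons 15.2, 17.9 and 21.6 CPM, each overlapping its neighbour. None of Vip, Sncg and Sst neurons was called against the other 2. Vip neurons had a log2 fold change of 0.67 (adjusted p = 0.0306), and in the added fit 1.04 (adjusted p = 0.000801), while Pvalb neurons, at 6.20, 16.2 and 12.5 CPM, were called lower (-1.08, adjusted p = 0.00306). Among glutamatergic subclasses L6 CT neurons led with 8.11, 7.86 and 8.27 CPM, 3.42, 1.43 and 1.61 times the others (adjusted p = 2.46e-06). L2/3 IT neurons, at 3.16, 7.59 and 7.07 CPM (adjusted p = 0.00023), and L4/5 IT neurons, at 2.31, 7.35 and 6.06 CPM (adjusted p = 0.000721), were also called higher than the mean log level of the others, which includes the empty L6 IT subclass. Against the pooled level of the others they stood at 0.570 to 1.22 times. L5/6 NP neurons held 3 UMIs of Htr7 and L6 IT neurons 0, which is at least 10.9-fold lower than the 5.43 CPM of the other glutamatergic subclasses.

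The channel subunit gene Htr3a was found mainly in Sncg and Vip neurons. Sncg neurons had 173, 139 and 125 CPM, 11.3, 7.39 and 8.27 times the other GABAergic subclasses, with Pvalb and Lamp5 included. The test set Sncg against Sst and Vip neurons alone (adjusted p = 4.09e-10). Vip neurons had 105, 81.5 and 76.3 CPM, 2.27, 2.06 and 2.73 times the others, again with Pvalb and Lamp5 included. Their test was against Sst and Sncg neurons alone (adjusted p = 6e-08). The ranges of Sncg and Vip neurons did not overlap. A UMI was found in 52.9%, 49.0% and 50% of Sncg and 64.3%, 43.3% and 39.3% of Vip neurons, against 0.0298%, 0.268% and 0.039% of microglia. Lamp5 neurons held 0, 1 and 5 UMIs. Sst neurons held 0, at least 107-fold lower than the 70.0 CPM of the other GABAergic subclasses. Pvalb neurons held 0 too, at least 38.4-fold lower than the 53.8 CPM of the others. Both pools rest almost wholly on Sncg and Vip neurons.

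The genes whose levels were most like those of a receptor were taken over 27 sums (9 subclasses in 3 libraries) among 11472 genes, as a description of points that share libraries and depth. Htr3a went with Cxcl14 (Pearson r = 0.99), a chemokine gene, Prox1 (0.97), a homeobox factor gene of interneurons, and Vip (0.96), itself a marker used to assign the cells. Htr1f went with Fam155a (0.96) and Gabra5 (0.86), a GABA-A receptor subunit gene. Htr2a went with Rtn4rl1 (0.90), Ptprs (0.86) and Cacng3 (0.86), and Htr4 with Rnf13 (0.90), Sik3 (0.86) and Zeb1 (0.84). Htr7 went with Lgi2 (0.89), Gng4 (0.88) and Pcp4l1 (0.88), Htr1b with Cpsf2 (0.88), Ube2g1 (0.87) and D430036J16Rik (0.86), and Htr2c with Bmper (0.87), Bach2 (0.83) and Samd4 (0.82). The sparse genes had the weakest likeness, at 0.73 to 0.79 for Htr1a (Chml, Lrig1 and Rabgef1) and 0.69 to 0.80 for Htr5a (Ugcg, Coro1c and Snrk).

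Detection in the same cells was compared for receptors that share a subclass. To compare shares at 1 depth, each neuron was thinned to 5000 UMIs, which left out 2, 29 and 17 L5/6 NP neurons. In thinned L5/6 NP neurons, Htr2c was detected in 72.3%, 76.0% and 72.0% of cells and Htr4 in 55.4%, 45.5% and 36.0%. Of the cells with Htr2c, 49.7% (96 of 193, Clopper-Pearson 95% interval 42.5 to 57.0) also held Htr4, against 32.4% (22 of 68, 21.5 to 44.8) of those without. By library the shares were 59.6%, 48.9% and 42.6% with Htr2c, against 44.4%, 34.5% and 19.0% without, higher with Htr2c in each library, while the pooled intervals overlapped. Those pooled intervals treat cells as independent and leave the library out. In Vip neurons 41.4% of cells with Htr2c and 29.4% of those without held Htr4. Unthinned L5/6 NP cells gave 68.7% with Htr2c and 48.8% without, but in the estrus library 80.0% with and 85.7% (6 of 7 cells) without. With the stricter gate the shares were 56.7% and 45.5%, and in the diestrus library 51.8% and 50%.

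Other pairs were less regular. Of Sncg neurons with Htr3a, 65.6% (21 of 32) also held Htr2c, against 33.3% of those without. By library these were 40.0%, 75.0% and 80.0% with Htr3a, against 33.3%, 34.6% and 31.8% without, and the stricter gate left 46.9% against 41.9%. In Vip neurons with Htr3a the shares holding Htr2c (43.2%, against 47.2% without) and Htr4 (35.1%, against 34.8%) were close. In L4/5 IT neurons with Htr2a, 45.7% (90 of 197) held Htr1f, against 33.7% of those without, an order that the stricter gate turned round (33.3% against 36.5%). Htr1b was found in 8.11% of L6 IT neurons with Htr2a and 7.86% of those without. At least 2 of the 10 receptors were found in 61.5%, 62.8% and 52.0% of thinned L5/6 NP, 57.1%, 36.0% and 45.8% of Vip and 38.7%, 47.4% and 34.4% of Sncg neurons, against 7.57%, 13.4% and 11.4% of L2/3 IT neurons.

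**Figure D2:**
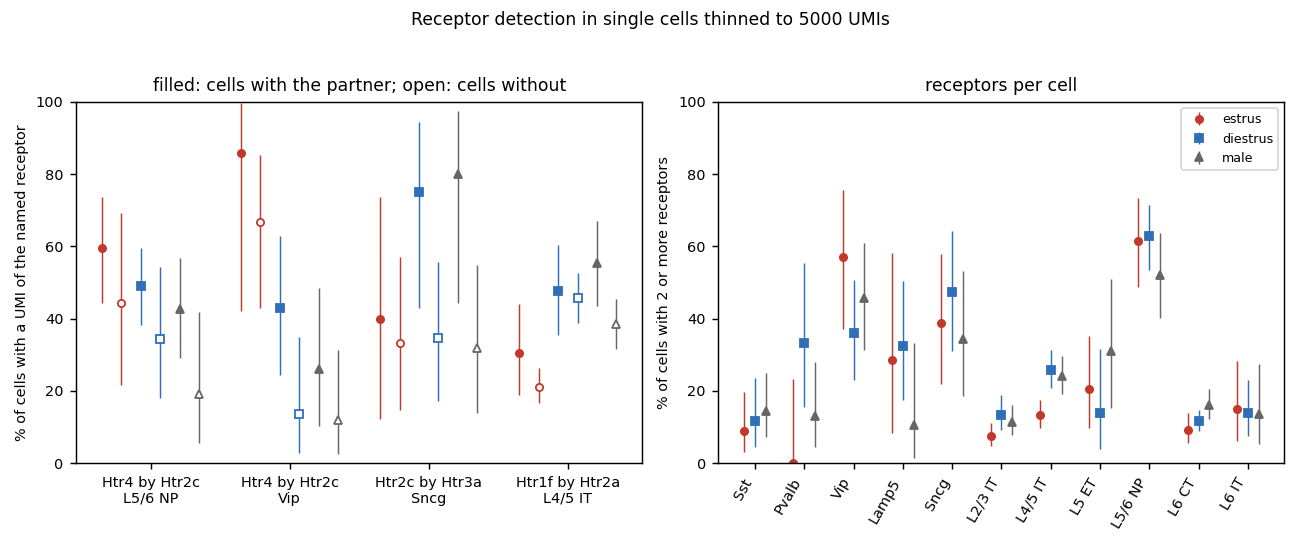
Left, share of cells with a UMI of the first-named receptor among cells with (filled) and without (open) the second; right, share of cells with at least 2 of the receptors, by subclass. Points are the 3 libraries, cells were thinned to 5000 UMIs, and bars are Clopper-Pearson 95% intervals; in L5/6 NP neurons the filled point lies above the open one in each library.

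Outside neurons, 5 of the genes had enough UMIs to be tested in 8 classes. Of these 40 tests 6 were called higher and 4 lower, where 13.6% and 10.8% of 128272 tests of all genes were. Of the 10 calls, 5 held without the estrus library, 5 without the diestrus library, 8 without the male library and 6 without the block. Htr1b stood out in vascular smooth muscle cells, the contractile cells of arterioles, with 36.0, 21.1 and 27.2 CPM from 89, 40 and 17 UMIs (log2 fold change 4.90, SE 0.30, adjusted p = 4.58e-12). This was 59.4, 20.1 and 22.1 times the other non-neuronal classes, and 25.9%, 11.7% and 16.3% of the cells held a UMI, against 0.238%, 0.498% and 0.468% of microglia. Pericytes, their neighbours on capillaries, had 1.21, 4.34 and 4.26 CPM.

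Htr2a was higher in endothelial cells, with 15.2, 15.9 and 14.3 CPM, against 2.66, 4.71 and 4.26 CPM in microglia (1.82, SE 0.18 against the mean of the other classes, adjusted p = 8.37e-09). A UMI was found in 8.06%, 6.63% and 3.81% of endothelial cells and in 1.34%, 1.76% and 1.40% of microglia. Htr1f was higher in oligodendrocyte precursors, at 50.8, 79.4 and 113 CPM (1.37, SE 0.16, adjusted p = 1.25e-07), which is 62.7%, 40.9% and 56.8% of the level in glutamatergic neurons of the same library. The gene was also listed in every other class at lower levels, such as 11.3, 36.0 and 42.1 CPM in microglia, 12.9, 37.4 and 48.7 CPM in oligodendrocytes and 11.1, 24.1 and 34.8 CPM in astrocytes. All 3 were lowest in estrus, as in neurons. Microglia had 13.9%, 18.5% and 21.1% of the glutamatergic level, and free RNA in the droplets was not tested as their source. Htr4 was called higher in endothelial cells (1.71, adjusted p = 0.0201) and in vascular smooth muscle cells (2.27, adjusted p = 0.0177), at no more than 5.82 CPM, and each call was lost in 4 of 11 alternatives. Htr2c was called higher in vascular smooth muscle cells (1.06, adjusted p = 0.0367), a call lost in 5. All 3 calls ended without the estrus library (adjusted p = 0.104, 0.111 and 0.111 in that order) and without the diestrus library (0.191, 0.206 and 0.447).

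The 4 lower calls rested on low levels. Htr1b had 9 UMIs in astrocytes (-1.61, adjusted p = 0.0278), and that call ended without any 1 library and with either other gate. Htr2a had 1.54, 1.77 and 2.83 CPM there (-1.39, adjusted p = 0.000211), under the fold limit with the looser gate (-0.94). Htr2c had 0.840, 1.99 and 3.17 CPM there (-1.52, adjusted p = 0.004; 0.0791 without the diestrus library). Htr1f had 4.92, 23.9 and 11.1 CPM from 14 UMIs in border macrophages (-1.10, adjusted p = 0.0295). That call was lost in 5 alternatives, among them the fits without the estrus (adjusted p = 0.0928) and male (0.25) libraries.

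**Figure D3:**
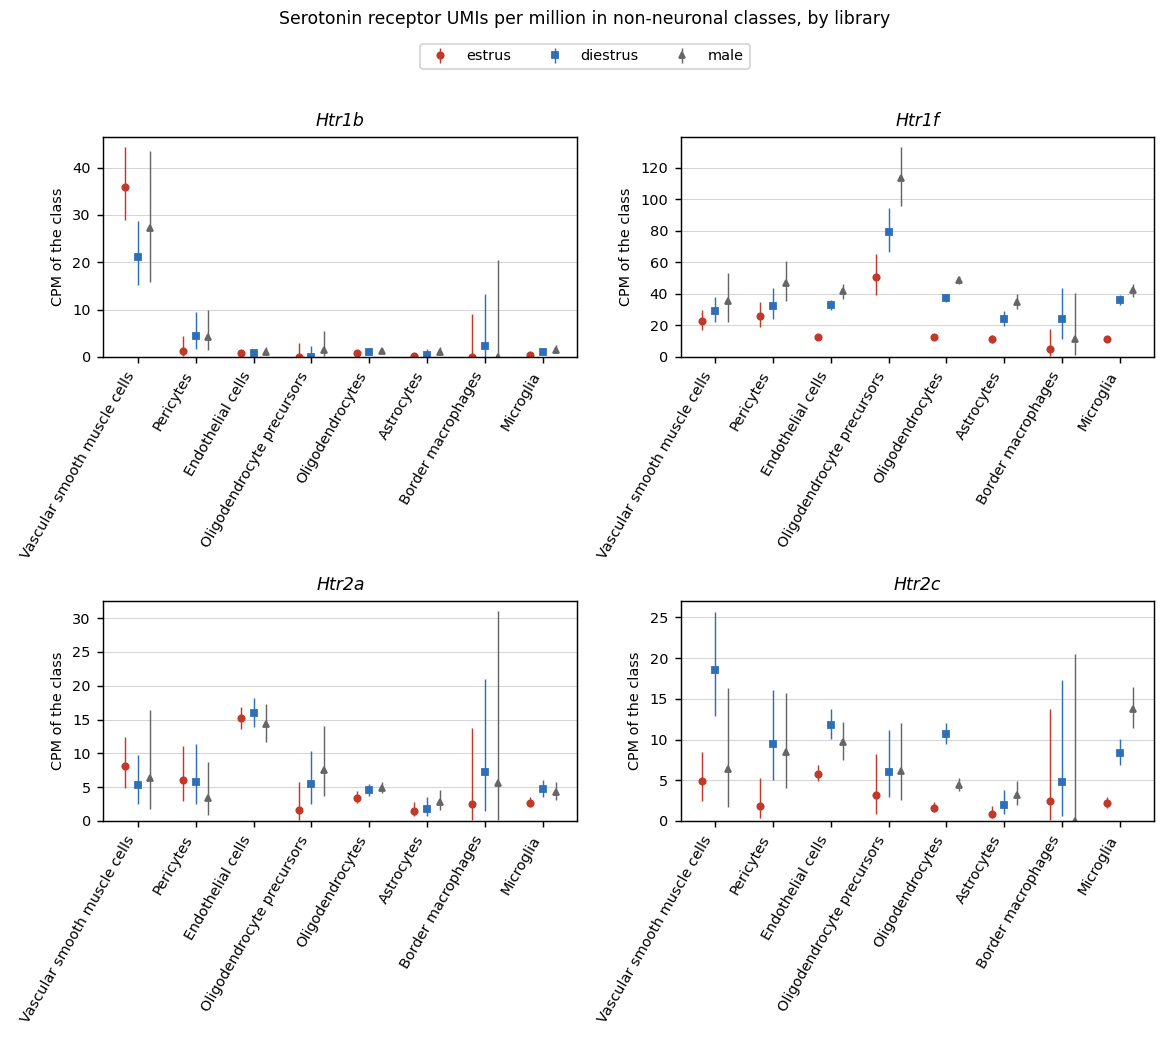
Level of 4 receptor genes (CPM of the class) in 8 non-neuronal classes, by library, with exact Poisson 95% intervals. Htr1b is raised in vascular smooth muscle cells, Htr2a in endothelial cells and Htr1f in oligodendrocyte precursors. Microglia are shown as a class taken, without a test, to lack these receptors.

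The libraries themselves were compared within GABAergic and within glutamatergic neurons. With 1 library per group there was no test, each value compares single libraries, and the 3 comparisons share libraries. In these pooled classes Htr1f was the only receptor past a 2-fold difference with 1 CPM added to each side. It was lower in estrus than in diestrus and than in male in both neuron classes, where 1.13% and 0.625% of all genes were past that fold in the lower direction in GABAergic and 0.701% and 1.75% in glutamatergic neurons. In the higher direction 0 receptors were past it, where 0.528% and 0.498% of all genes were in GABAergic and 0.371% and 0.679% in glutamatergic neurons. The plain log2 ratios of estrus over diestrus were -1.81 (95% interval -2.09 to -1.55) in GABAergic and -1.26 (-1.32 to -1.21) in glutamatergic neurons. Those of estrus over male were -1.38 (-1.66 to -1.11) and -1.30 (-1.36 to -1.24). For diestrus over male 0 receptors were past the fold, where 0.238% of genes were higher and 0.155% lower in GABAergic and 0.0706% and 0.0848% in glutamatergic neurons. Htr1f gave 0.43 (0.25 to 0.62) in GABAergic and -0.04 (-0.08 to 0.01) in glutamatergic neurons.

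The estrus difference of Htr1f was not the same in every subclass. Plain log2 ratios of estrus over diestrus were -1.62 in L2/3 IT, -1.48 in L4/5 IT, -1.77 in Pvalb, -1.74 in Lamp5 and -1.12 in Sst neurons. They were -0.75 in L5 ET, -0.51 in L5/6 NP, -0.51 in L6 CT and -0.25 (interval -0.55 to 0.04) in L6 IT neurons. L2/3 IT neurons, at 15.4, 47.5 and 47.5 CPM in estrus, diestrus and male, lay near microglia at 11.3, 36.0 and 42.1 CPM. Microglia, taken without a test to lack the receptor, were thus also lowest in estrus. The part of free RNA in these ratios was not tested. The subclass make-up of the libraries moved with the pooled value: L6 CT neurons, the highest in Htr1f, were 212 of 1374 glutamatergic neurons in estrus, 512 of 1760 in diestrus and 401 of 1550 in males. With the fitted glutamatergic subclasses weighted alike, the estrus over diestrus value was -0.66 and the estrus over male value -0.78, under the fold limit. Both GABAergic values stayed past it, weighted over Sst, Vip and Sncg neurons only. They leave out Pvalb, Lamp5 and unassigned GABAergic neurons, so they cover other cells than the pooled class.

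Some other receptors differed in the same direction, by less. In glutamatergic neurons the interval of estrus over diestrus lay below 0 for Htr1a, Htr1f, Htr2c, Htr4 and Htr7 and above 0 for Htr5a. The same genes stood so for estrus over male. No share of all genes with such intervals is given, so these lists do not set receptors apart from other genes. Htr7 had a plain log2 ratio of -1.22 (interval -1.50 to -0.94) for estrus over diestrus, which became -0.99 with 1 CPM added and so was not past the fold. Htr2c had -0.66 (-0.76 to -0.56), Htr1a -0.65 (-0.89 to -0.40) and Htr4 -0.62 (-0.78 to -0.47), while Htr2a had 0.00 (-0.09 to 0.10). That pooled value of Htr2a did not hold in each subclass. It was -0.65 (-0.81 to -0.49) in L4/5 IT and -1.04 (-1.84 to -0.32) in L6 CT neurons. In L2/3 IT neurons it was 0.15 (-0.08 to 0.40) and in L6 IT neurons 0.02 (-0.32 to 0.35). Htr4 turned to 0.17 with subclasses weighted alike. Within subclasses, further receptors had ratios of over 2-fold with 1 CPM added: Htr7 in L4/5 IT neurons for estrus over diestrus (-1.34; 41 and 81 UMIs), Htr2c in Vip neurons for estrus over diestrus (-1.26; 46 and 185 UMIs) and Htr1a in L6 CT neurons for estrus over male (-1.01; 33 and 85 UMIs). The share of all genes past that fold in these subclasses is not given, so these ratios only describe single values. In GABAergic neurons the intervals of Htr1f, Htr2a, Htr2c and Htr4 lay below 0 for estrus over diestrus. For estrus over male those of Htr1f, Htr2a and Htr2c lay below 0, and Htr3a lay above 0 at 0.43 (0.14 to 0.72). Htr4 had 0.81 (0.43 to 1.19) for diestrus over male there.

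Gene span moved with the estrus ratios, and the libraries also differed in depth per neuron, as given above. The part of either in the differences was not tested. Across 14530 genes in glutamatergic neurons the Spearman correlation of span with the estrus over diestrus ratio was -0.37, and across 9464 genes in GABAergic neurons it was -0.54, with genes not independent of each other. Genes over 100 kb had medians of -0.20 and -0.32, against -0.01 over all genes in both classes. For estrus over male the correlations were -0.50 in GABAergic and -0.37 in glutamatergic neurons, and for diestrus over male 0.12 in GABAergic and -0.12 in glutamatergic neurons. The receptors with the largest spans were Htr2c (235 kb), Htr1f (181 kb), Htr4 (172 kb) and Htr7 (98.8 kb). All of them were below 0 for estrus over diestrus in glutamatergic neurons. For the same ratio Htr1a, at 4.48 kb, was also below 0, and Htr2a, at 68.7 kb, was at 0.00 in the pooled class. Htr1b, at 5.54 kb, was at -0.06 and Htr5a, at 12.9 kb, at 0.24.

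**Figure D4:**
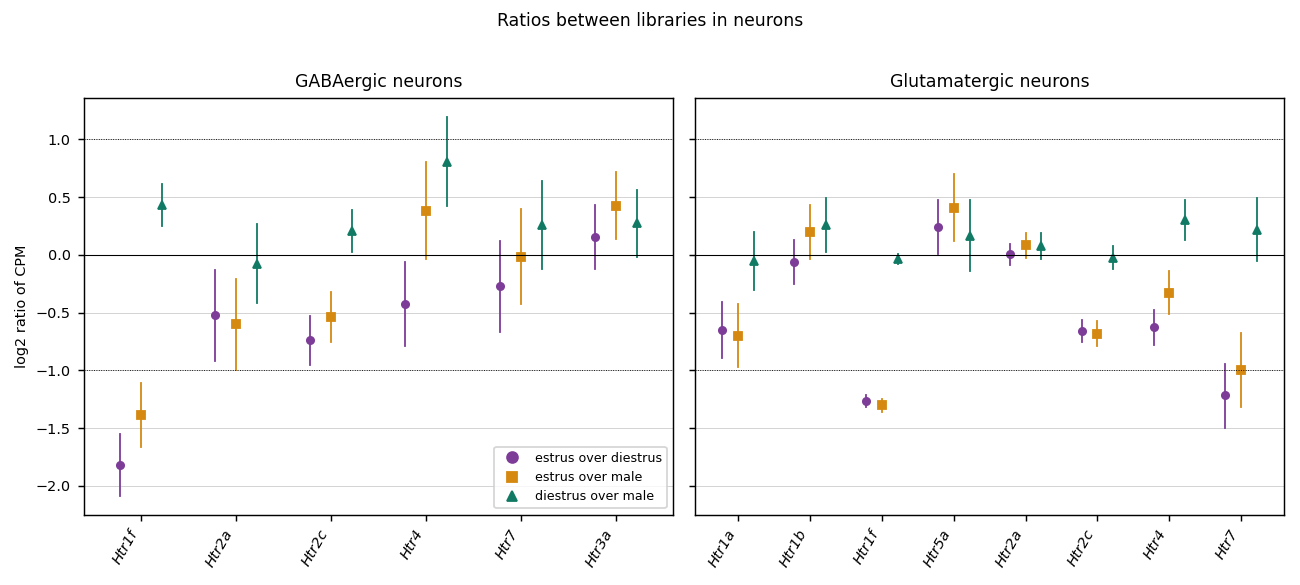
Plain log2 ratios of CPM between libraries for receptors with at least 100 UMIs over the pair, in GABAergic (left) and glutamatergic (right) neurons, with exact 95% intervals for counting error. Dotted lines mark a 2-fold difference; Htr1f in estrus lies below it in both classes.

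Genes of the receptors' pathways were first compared in GABAergic against glutamatergic neurons, where 9.73% of all genes were called higher and 11.2% lower. Itpr1, the calcium release channel downstream of Gq, was the 1 of 5 tested Gq genes called, and it was lower, at 63.2, 103 and 109 CPM in GABAergic and 306, 343 and 329 CPM in glutamatergic neurons (-1.89, adjusted p = 9.44e-09). The list's median was -0.05 and that of all genes 0.01. Of 8 Gs genes Adcy8 was higher (1.03), and Adcy9 (-1.65) and Adcy2 (-1.03), also adenylyl cyclases, were lower, with a list median of -0.15. Of 8 Gi/o genes only Kcnj6, a potassium channel subunit gene, was called (-1.22; median -0.10), and of 6 genes for partners and desensitisation only Rgs4, which shortens Gi/o and Gq signals (-2.32; median -0.11). Of 7 genes of synthesis, transport and breakdown, Maob was lower (-3.97), and Tph2 and Slc29a4 were higher on at most 4.11 CPM, with a list median of 0.39. Of the other receptor genes Htr6 was lower (-1.06; median -0.30).

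L5/6 NP neurons, the peak of Htr2c and Htr4, also differed in Gs genes: 2 of 8 were called higher and 2 lower, with a median of 0.23 against 0.01 over all genes. Adcy2 had 997, 1015 and 1124 CPM (2.12) and Adcy8 139, 140 and 150 CPM (2.06) there, while Adcy1 was lower (-1.31). Of the other lists there, Kcnj6 (-1.41) and Htr6 (-1.51) were lower, and Htr5b, a receptor gene outside the members, was higher at 6.23, 2.51 and 4.42 CPM (5.01, adjusted p = 1.33e-06). Over the 6 glutamatergic subclasses, where 5.54% of all tests were called higher and 4.39% lower, the Gs list had 5 of 48 tests called higher and 5 lower, the Gi/o list 0 and 1 of 48, the Gq list 1 and 1 of 30, the partner list 1 and 1 of 36, the list of synthesis, transport and breakdown 2 and 3 of 30 and the other receptors 3 and 1 of 18. Over the GABAergic subclasses, where 4.13% and 3.89% of all tests were called, the counts were 0 and 3 of 24 for Gs, 2 and 3 of 24 for Gi/o, 2 and 2 of 15 for Gq, 2 and 3 of 18 for partners and 0 and 0 of 3 for synthesis, transport and breakdown.

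The same lists were counted in the vessel cells that held Htr1b and Htr2a. In endothelial cells 4 of 4 genes of synthesis, transport and breakdown were called higher (median 3.47, against -0.01 over all genes). Ddc, which makes serotonin from its precursor, had 131, 143 and 122 CPM (4.55), and Maoa, which breaks serotonin down, had 258, 285 and 296 CPM (3.04). Of 6 Gq genes 4 were called higher and 0 lower (median 1.17), of 8 Gs genes 1 higher and 2 lower (-0.38), of 8 Gi/o genes 1 and 1 (0.11), and of 6 partners 1 and 1 (-0.66). In vascular smooth muscle cells 0 of 4 genes of synthesis, transport and breakdown were called higher and 1 lower (median -0.98, against -0.03 over all genes). There 2 of 6 Gq genes were higher and 1 lower (0.61), 2 of 8 Gs genes (0.50) and 2 of 8 Gi/o genes (0.45) higher and 0 lower, and 1 of 6 partners higher (-0.67). Itpr1 had 299, 395 and 457 CPM (2.29) and Rgs4 714, 646 and 565 CPM (3.87) in these cells. In astrocytes, where no receptor was called higher, Maob had 130, 112 and 108 CPM (3.91). Over all non-neuronal classes, where 13.6% of all tests were called higher and 10.8% lower, the list of synthesis, transport and breakdown had 7 of 32 tests called higher and 6 lower, the Gi/o list 7 and 7 of 64, the Gq list 11 and 12 of 48, the Gs list 10 and 10 of 64 and the partner list 11 and 13 of 48.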

How the data were processed

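Per the labels' protocols, each library was made with the 10x 3′ kit v3.1. The deposited values are whole UMI counts per gene and barcode made by the authors with Cell Ranger, 7.0.0 per the file headers and 3.0.2 on mm10 per the submitters' processing notes. No source used here gives the annotation, intron counting, strand or cell calling. Barcodes with under 500 genes, over 15% mitochondrial UMIs or at least 50% haemoglobin UMIs were left out, which kept 12881, 14743 and 16226 in estrus, diestrus and male. Counts scaled to 10000 per cell were scored by marker lists. A cell took a class when at least 3 class markers were detected and its score led by 0.3, and a neuron took a subclass with at least 2 markers and a lead of 0.2. Near the class limit lay 244, 349 and 431 cells, and near the subclass limit 309, 271 and 248 neurons. Scrublet scores over 0.3 marked 680, 702 and 791 barcodes, which were left out only in an alternative. UMIs were summed per class and library and tested over all genes with edgeR 4.0.16 (R 4.3.3), glmQLFit and glmQLFTest, TMM scaling, the library as a block and Benjamini-Hochberg adjustment. Each class was set against the mean of the others of its family. With 1 library per group, groups were compared as log2 CPM ratios with exact intervals, and 1 CPM added for the fold limit. A count of 0 allows 3 counts. Alternatives were DESeq2 1.42.0, its size factors, no filter on low counts, other gates and barcode limits, no block and leaving out each library. By rule, every member was named, with the 3 genes most correlated with each member of at least 100 UMIs; pathway lists were counted, with values for at most 3 genes of a list, those with the largest absolute log2 fold change. The members, lists and markers were chosen with earlier results of these data known. Of the genes most like a receptor, not every one is reported here.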

Additional observations from a re-analysis of the deposited data

Results flagged for a closer look

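Htr1d stood out in cells outside the comparisons. L6b neurons, too few to be fitted (1, 19 and 14 cells in estrus, diestrus and male), had 13.3 CPM of Htr1d in the diestrus library, from 8 UMIs in 36.8% of cells, and 10.7 CPM in the male library, from 4 UMIs in 21.4% of cells, above the limit that a count of 0 allows.

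In 3 cases the libraries differed in opposite directions in different subclasses, and these differences were not tested. Values are log2 ratios with 1 CPM added. Htr1f in diestrus over male was 0.88 in Pvalb and -0.22 in L6 CT neurons. Htr2a in estrus over male was 0.28 in L2/3 IT and -0.52 in L4/5 IT neurons. Htr4 in estrus over diestrus was 0.39 in L5/6 NP and -0.76 in L5 ET neurons.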

How the results depend on the processing

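Over the alternatives, 53 called receptor values were recomputed 592 times; 531 kept their call, 61 lost it and 0 changed direction. With 1 library left out, 20 to 25 of the 26 glutamatergic calls held, and 23 to 25 were called in all, gained ones included. Likewise 10 of 11 GABAergic calls held each time (10 to 11 called), 5 of 6 between GABAergic and glutamatergic neurons (5 called) and 5 to 8 of 10 non-neuronal ones (5 to 10 called). Without the library block 24, 11, 4 and 6 were called in that order, where the block pairs classes of 1 library. GABAergic calls became 17 with subclasses of at least 10 cells, chosen after seeing the data. Of 4 library differences past 2-fold in the pooled GABAergic and glutamatergic neurons, all of Htr1f, 2 remained with the fitted subclasses weighted alike. That weighting leaves out Pvalb, Lamp5 and unassigned neurons. Htr4 in L5/6 NP neurons with Htr2c was found in 68.7% of cells unthinned, against 49.7% thinned. The cause of these shifts was not tested. Sparse genes (Htr1d, Htr1b, Htr1a) and the smaller subclasses limit what could be detected.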
